A study of Mus musculus with 2 samples.

Results

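Cxcr2-positive neutrophils of mouse colon tumours were taken from 2 single-cell libraries by transcript detection alone, and 1594 of 14408 barcodes belonged to them, 111 in the library labelled KO and 1483 in the library labelled WT. A barcode counted when it held at least 200 genes, under 20% mitochondrial UMIs, a UMI of at least 4 of 9 neutrophil genes (S100a8, S100a9, Csf3r, Retnlg, G0s2, Hdc, Il1r2, Mxd1 and Trem1) and at least 1 Cxcr2 UMI. Barcodes with any UMI of Cd3e, C1qa or Cd79a, or with 10 or more UMIs per 10000 of Epcam, Krt8 and Krt18 together, were left out. A UMI is a tag that marks 1 captured transcript. These 16 genes and the mitochondrial share chose the cells, so their levels describe the choice and test nothing.

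The tumours came from mice whose Ecm1 gene, which encodes extracellular matrix protein 1, carried floxed alleles in both groups. The KO group is ECM1Flox/Flox with Villin-Cre, and the WT group is ECM1Flox/Flox without Cre, so the control is a floxed mouse and not an unmodified one. The Villin promoter is active in intestinal epithelium, and Cre is therefore not expected in the neutrophils themselves. The series title places neutrophil recruitment through CXCL1 and CXCR2, neutrophil extracellular traps and SQSTM1 at the centre of the study. The sources used here do not give the number of animals behind each library, their age or the way the tumours arose. With 1 library per genotype there is no replicate, so no difference between genotypes was tested, and every interval given is a 95% interval for counting error that says nothing of the spread between animals.

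Cxcr2 encodes the receptor for the CXCL chemokines that draw neutrophils out of the bone marrow and into tissue. Neutrophils make their granule proteins in a fixed order as they mature in the marrow, azurophil before specific before gelatinase granules, and circulating cells carry mainly the later messages. In tissue they switch on chemokines, interleukin-1 and immediate early genes, and in tumours some of them come to express angiogenic and lipid-handling genes.

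The targeted gene did not separate the libraries. In epithelial-gated barcodes, where the Cre acts, Ecm1 stood at 38.8 CPM, UMIs of a gene scaled to a common library total, in the library labelled KO and 39.9 CPM in the library labelled WT. A 3' tag outside a deleted part would not report the deletion, and the deleted part is not given in the sources used here, so the genotypes are named as the libraries are labelled. In the Cxcr2-positive neutrophils Ecm1 had 4 and 38 UMIs, or 9.82 and 10.3 CPM. Xist had 93 UMIs in those labelled KO and 0 in those labelled WT, while Ddx3y had 0 and 666, so the libraries also differed in sex-linked transcripts, and that difference and the labelled genotype cannot be told apart. Transcripts linked to ribosomal RNA (Rn18s-rs5, Lars2 and Mir6236) took 5.59% of the UMIs of the Cxcr2-positive neutrophils labelled KO and 0.492% of those labelled WT, with a similar gap in Cd3e-gated cells, 4.34% against 0.445%. The libraries shared 17 barcodes, of which 0 of the KO and 2 of the WT copies were Cxcr2-positive neutrophils.

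The label was checked on genes that the rule did not use. Mmp8, neutrophil collagenase, was detected in 50.5% of members labelled KO and 61.2% of those labelled WT, Mmp9, gelatinase B, in 83.8% and 82.6%, and Ly6g, the standard surface marker of mouse neutrophils, in 46.8% and 43.9%. Of the 6 azurophil granule genes, messages of promyelocytes, Mpo, Elane, Ctsg, Ms4a3 and Bpi gave 0 UMIs in the library labelled KO, as did all of these but Mpo, with 1 UMI, in the library labelled WT. The other one, Prtn3, gave 1 UMI labelled KO and 12 UMIs labelled WT. S100a8 and S100a9, calprotectin subunits and part of the rule, stood at 77900.2 and 106661 CPM in the Cxcr2-positive neutrophils labelled KO, and 76989.6 and 92832 CPM in those labelled WT. Retnlg, a resistin-like protein and also part of the rule, had medians of 95.6 and 108 per 10000 and ran from 0 to 570.3 and from 0 to 697 over single cells. All 9 selection genes were detected in 66 of 111 cells labelled KO and 710 of 1483 labelled WT.

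Few cells lay near the limit on the 9 selection genes, and many lay at the Cxcr2 limit. In the library labelled KO 1 cell had 6 of the 9 selection genes and none had 4 or 5, and in the library labelled WT 8 cells had 5 and 4 cells had 4. Just outside, 5 barcodes labelled WT with a Cxcr2 UMI had 3 of the genes, and 2 barcodes labelled KO had 2. On the keratin and Epcam limit, 11 and 175 cells lay between 5 and 10 per 10000, and 5 and 29 otherwise eligible barcodes lay between 10 and 20. At the Cxcr2 limit, 54 cells labelled KO and 651 labelled WT passed with exactly 1 Cxcr2 UMI. Another 113 and 1064 barcodes that met every other step were left out with 0.

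Cxcr2-positive neutrophils were 6.59 times more frequent in the library labelled WT. They made up 2.53% (2.09 to 3.04) of the 4387 passing barcodes labelled KO, and 16.7% (15.9 to 17.5) of the 8895 labelled WT. Most of that gap lay in cells that met every step but Cxcr2, called gated neutrophils here, and less in Cxcr2. Gated neutrophils were 5.11% and 28.6% of passing barcodes, 5.61-fold apart. The name describes the gate and may cover other cells. Of those without Cxcr2, 38.1% labelled KO and 38.7% labelled WT held at least 50 UMIs per 10000 of other cells' markers. Among the 224 gated neutrophils labelled KO 49.6% (42.8 to 56.3) held a Cxcr2 UMI, and among the 2547 labelled WT 58.2% (56.3 to 60.1) did. In the stricter set described below these shares were 62.7% and 71.3%. A share of all barcodes also depends on how many epithelial and other cells each suspension yielded.

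Depth, the number of UMIs in a cell, enters this share, since the cells labelled KO held more, with a median of 3282.5 UMIs per gated neutrophil against 2087. When each cell was reduced to 1000 UMIs, the expected share with a Cxcr2 UMI was 23.5% (18.0 to 29.6) of 222 cells labelled KO and 38.4% (36.5 to 40.3) of 2489 labelled WT, after leaving out 2 and 58 shallower cells. Counted in whole cells, the ratio between the libraries was 1.64 at equal depth, in place of 1.18. Cxcr2 itself stood at 5.26 UMIs per 10000 in the median cell labelled KO and 7.83 in the median cell labelled WT, and the range labelled KO, 0.826 to 19.6, lay inside the range labelled WT, 0.642 to 64.2. The highest count in a cell was 6 Cxcr2 UMIs labelled KO and 11 labelled WT.

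Detection of Cxcr2 was close to absent in Cd3e-gated and C1qa-gated cells, but their gates took only barcodes with fewer than 4 of the 9 neutrophil genes. Barcodes rich in neutrophil RNA were thus removed first, so these low shares follow in part from the gate and do not test background Cxcr2. Left out of the neutrophil rule for Cd3e alone were 2 barcodes labelled KO and 47 labelled WT, and for C1qa alone 2 and 69. Cxcr2 was seen in 0 of 216 Cd3e-gated cells labelled KO, which allows a share of up to 1.69%, and in 2 of 967 labelled WT (0.207%). In C1qa-gated cells, macrophage-marked barcodes with median depths of 7724 and 5831 UMIs, the counts were 0 of 253, which allows up to 1.45%, and 5 of 345 (1.45%). Cd3e-gated cells had median depths of 3527 and 2501 UMIs, similar to those of the neutrophils.

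**Figure D1:**
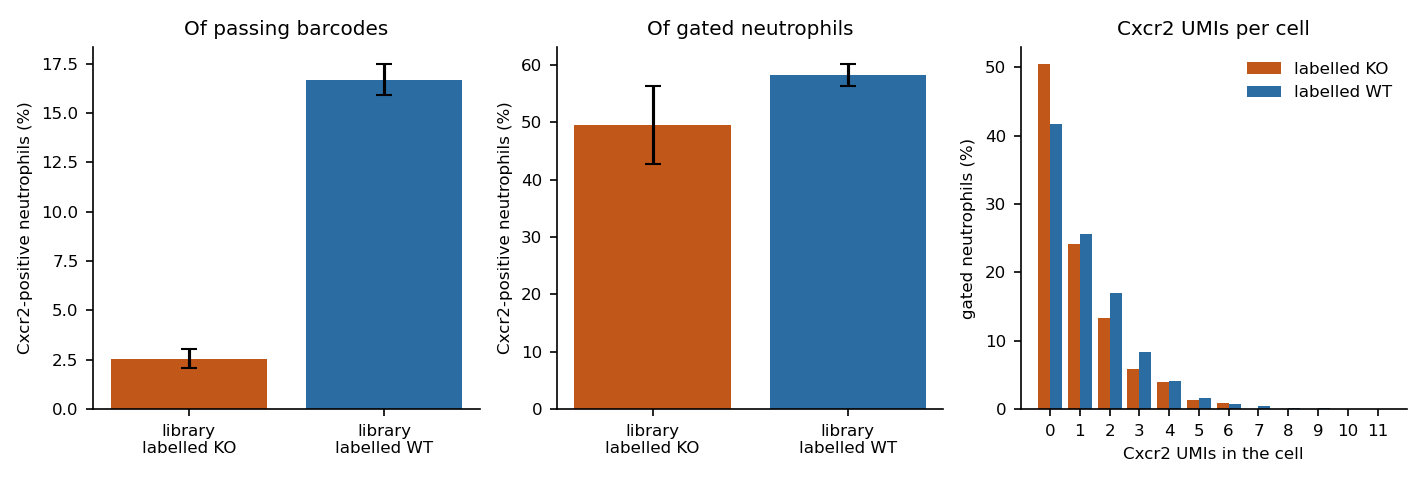
Share of Cxcr2-positive neutrophils among passing barcodes (left) and among gated neutrophils (middle) in percent, 1 bar per library with exact 95% intervals for counting error, and the distribution of Cxcr2 UMIs over gated neutrophils (right, percent of gated neutrophils of that library). The share of passing barcodes was 2.53% in the library labelled KO and 16.7% in the library labelled WT, while the share of gated neutrophils was 49.6% and 58.2%.

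Between the libraries, the Cxcr2-positive neutrophils labelled KO had higher levels of several specific granule messages, part of them from a handful of cells. Several NF-kB feedback and interleukin-1 genes were lower, while immediate early genes lay on both sides. UMIs of the members were summed per library, 407470 labelled KO and 3674066 labelled WT, and compared as CPM. Of 3132 genes with enough UMIs, 480 (15.3%) were at least 1.5-fold higher and 726 (23.2%) at least 1.5-fold lower in the library labelled KO, and the median log2 ratio of all was -0.10. Counts in gene groups are read against these shares. Since other cell types left a trace in some members, each ratio was also computed in a stricter set, with at least 7 of the 9 selection genes and under 50 UMIs per 10000 over 61 markers of lymphoid, macrophage, monocyte, dendritic, mast and stromal cells. That set kept 106 cells labelled KO and 1355 labelled WT.

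Of 9 genes on the specific granule list, 7 were past 1.5-fold higher in the library labelled KO, 0 lower, and the median log2 ratio was 1.02. Lcn2, an iron-siderophore binding protein, was at 3691 CPM against 2195, a ratio of 1.68 (1.59 to 1.78) that was 1.35 after thinning each cell to 1000 UMIs. Hp, the haemoglobin scavenger haptoglobin, was at 1362 against 826 CPM, a ratio of 1.65 (1.5 to 1.81), or 1.47 thinned. Lyz2, the lysozyme of myeloid cells, was at 3419 against 1680.2 CPM, and its ratio of 2.03 (1.92 to 2.16) was 2.68 in the stricter set. The spread over cells was wide, with Lyz2 between 0 and 143 UMIs per 10000 labelled KO and 0 and 195 labelled WT around medians of 25.6 and 9.78.

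The remaining large ratios of this group rested on a handful of cells. Camp, the cathelicidin precursor, gave 280 UMIs labelled KO and 14 labelled WT, 687 against 3.81 CPM. Ltf, lactoferrin, gave 115 and 19 UMIs, Ngp, neutrophilic granule protein, 655 and 390, and Chil3 22 and 50. Of the KO-labelled UMIs, 98.9% of Camp, 98.3% of Ltf, 86.1% of Ngp and 95.5% of Chil3 lay in the 5 richest cells for each gene.

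The UMIs of these genes lay in the same cells, and 5 of 111 Cxcr2-positive neutrophils labelled KO (4.50%, 1.48 to 10.2) held UMIs of both Camp and Ltf. In the library labelled WT 0 of 1483 did, which allows a share of up to 0.248%. The 5 cells carried between 21 and 96 Camp UMIs and between 18 and 180 Ngp UMIs each. Together they held 277 of the 280 Camp UMIs, 113 of the 115 Ltf UMIs and 21 of the 22 Chil3 UMIs. They also had high Mmp8, at 21.4 UMIs per 10000 against 6.11 over all members labelled KO, and high Lcn2, at 109 against 36.9. Their Cxcr2 stood at 3.22 per 10000, below the 5.30 of all members labelled KO, and Mki67, a proliferation marker, gave 0 UMIs. The ratio of Ngp was 15.1 over all cells, 5.16 without the richest 5% of cells of each library and 2.55 without the 5 richest of each. Cells with at least 10 Ngp UMIs numbered 9 labelled KO, with 609 of 655 Ngp UMIs, and 2 labelled WT, with 22 of 390. Most Ngp UMIs labelled KO thus lay in these few cells, and a difference outside them is not shown.

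Gelatinase granule genes, the last granule set to be made, did not share that direction. Of 7 measured, Pglyrp1 and Arg1 were past 1.5-fold higher, Slc11a1 and Adam8 past it lower, and the median log2 ratio was -0.32. In the stricter set 6 were measured, with Pglyrp1 alone past 1.5-fold higher, so Arg1 was not called there. Mmp8, neutrophil collagenase, was at 611 CPM labelled KO and 764 labelled WT, a ratio of 0.80 (0.700 to 0.911) that was 0.669 without the richest 5% of cells. Mmp9, gelatinase B, was at 869 and 997 CPM. Slc11a1, a metal ion transporter of phagosomes, was at 83.4 against 301 CPM (ratio 0.277, 0.191 to 0.390), and Pglyrp1, a peptidoglycan-binding protein, at 1276 against 716 (ratio 1.78, 1.62 to 1.96). Wfdc21, an abundant secreted neutrophil protein, differed little, with 2965 and 3110.2 CPM.

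The Mmp8 promoter is shown because Mmp8 was both a marker of these cells and one of 2 gelatinase granule genes with a C/EBP-type motif in this window. The motif searched was TTGCNNAA, on either strand (TTNNGCAA on the other). It occurred in 9.56% of 32851 RefSeq windows of 250 bases before a start, in 2 of 5 matched gelatinase granule genes (Adam8 and Mmp8) and in 3 of 8 specific granule genes (Lcn2, Ltf and Ngp). Capitals mark the match, 19 bases before the start of Mmp8, in the 250 bases at chr9:7558179-7558428 on the plus strand of GRCm38. A match describes letters only and is neither a shown binding site nor a cause.
Mmp8: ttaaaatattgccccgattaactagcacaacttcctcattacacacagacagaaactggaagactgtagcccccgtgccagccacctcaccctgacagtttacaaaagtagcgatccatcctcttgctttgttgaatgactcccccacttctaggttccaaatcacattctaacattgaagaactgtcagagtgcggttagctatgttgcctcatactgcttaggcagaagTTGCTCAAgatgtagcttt

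Among the 7 NADPH oxidase genes, which make the respiratory burst, 2 were past 1.5-fold higher in the library labelled KO and 1 lower. Cyba, the small membrane subunit, was at 908 against 572 CPM (ratio 1.59, 1.42 to 1.78), and Ncf4, a cytosolic subunit, at 272 against 170 (ratio 1.61, 1.30 to 1.97). Without the 5 richest cells of each library these ratios were 1.41 and 1.44, inside 1.5-fold. That step takes a larger share of the fewer cells labelled KO. Without the richest 5% of cells the ratios of Cyba and Ncf4 were 1.56 and 1.79. Cybb, the catalytic subunit, was at 90.8 against 153 CPM, but its ratio of 0.595 became 0.934 in the stricter set. Only 3 of 8 genes of extracellular trap release had enough UMIs, and 0 of them passed 1.5-fold. Padi4, the enzyme that citrullinates histones before chromatin is released, stood at 66.3 CPM labelled KO and 67.2 labelled WT, a ratio of 0.986 (0.637 to 1.47) from 27 and 247 UMIs.

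Immediate early genes split in 2 directions. Of 21 measured, 7 were past 1.5-fold higher and 8 past it lower in the library labelled KO. Dusp1, a phosphatase that ends MAP kinase signalling, was at 1609.9 CPM against 4988, a ratio of 0.323 (0.298 to 0.349) that ranged from 0.285 to 0.362 over every alternative run. The median cell had 13.4 Dusp1 UMIs per 10000 in the library labelled KO and 46.7 in the library labelled WT, and the upper quartile labelled KO, 23.1, lay below the lower quartile labelled WT, 29.5. At 1000 UMIs per cell, 68.0% and 96.3% of members would show a Dusp1 UMI.

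Fos, an AP-1 subunit, followed with 1124 against 3609.9 CPM and a ratio of 0.311 (0.283 to 0.342). Of its UMIs labelled KO 57.0% lay in 5 cells, and without the richest 5% of cells of each library the ratio was 0.154. Zfp36, which destabilises cytokine messages, had a ratio of 0.525 (0.482 to 0.571), Fosl2, another AP-1 subunit, 0.376 (0.323 to 0.436) and Junb, their partner, 0.627 (0.593 to 0.664).

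Klf2, a factor linked to quiescence, went the other way, with 1553 against 666 CPM and a ratio of 2.33 (2.13 to 2.55). A Klf2 UMI would be seen in 72.0% of members labelled KO and 42.7% of those labelled WT at 1000 UMIs per cell. Ier2 and Ier5, short-lived response genes, had ratios of 1.70 (1.5 to 1.93) and 1.61 (1.43 to 1.81). That of Ier2 was 1.41 without the 5 richest cells of each library and 1.60 without the richest 5%. Jun, the AP-1 partner of Fos, had a ratio of 2.0 over all cells, but 78.3% of its UMIs labelled KO lay in 5 cells. The Jun ratio was 0.537 without the 5 richest cells of each library, 0.989 without the richest 5% and 2.46 in the stricter set.

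NF-kB feedback genes were mostly lower or similar in the library labelled KO. All 16 of the NF-kB list had enough UMIs, and 1 was past 1.5-fold higher in the library labelled KO against 7 lower, with a median log2 ratio of -0.54. Nfkbia, the inhibitor that holds NF-kB in the cytoplasm, was the exception, at 6234 against 4045 CPM, a ratio of 1.54 (1.48 to 1.61) that ranged from 1.46 to 1.65 over the alternatives and so sat at the limit of 1.5. Tnfaip3, the A20 deubiquitinase that ends the same signal, was at 444 against 1122 CPM, a ratio of 0.396 (0.339 to 0.459).

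Per cell, Nfkbia had medians of 62.3 and 37.3 UMIs per 10000 labelled KO and WT, and Tnfaip3 2.94 and 9.78. The single-cell ranges of the 2 libraries overlapped for both genes. Nfkbiz, an atypical nuclear inhibitor, had a ratio of 0.623 (0.578 to 0.672), Nfkbid, a relative of it, 0.508 (0.398 to 0.639), Zc3h12a, the Regnase-1 endonuclease, 0.564 (0.428 to 0.731) and Birc3, a ubiquitin ligase of the pathway, 0.660 (0.521 to 0.827). After thinning to 1000 UMIs per cell Nfkbiz was at 0.748 and Nfkbid at 0.814, inside 1.5-fold, and Birc3 was at 0.741 with each cell weighted equally. The subunits Rela and Nfkb1 had ratios of 0.691 and 0.791, inside 1.5-fold.

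Interleukin-1 family genes were lower or similar in the library labelled KO, with 5 of 8 measured past 1.5-fold lower, 0 higher and a median log2 ratio of -0.62. Il1b, the cytokine itself, was at 10705 against 13534 CPM, a ratio of 0.791 (0.767 to 0.816). Il1rn, its secreted antagonist, was at 488 against 973 (ratio 0.502, 0.433 to 0.579), and Nlrp3, the inflammasome sensor, at 803 against 1252 (ratio 0.641, 0.571 to 0.717). Il36g, a related cytokine, and Il1rap, the shared receptor chain, had ratios of 0.487 and 0.359. Thinned to 1000 UMIs per cell, Il1rn was at 0.776 and Nlrp3 at 0.825, both inside 1.5-fold.

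Chemokine messages were dominated by Cxcl2, a CXCR2 ligand that neutrophils release to recruit further neutrophils. It was at 18556 CPM labelled KO and 29626 labelled WT, a ratio of 0.626 (0.612 to 0.641), and ranged from 0.529 to 0.697 over the alternatives. Single cells held 15.1 to 1136 Cxcl2 UMIs per 10000 labelled KO, median 125, and 0 to 1441 labelled WT, median 258. Cxcl1, the ligand named in the series title, was much scarcer, at 373 against 140 CPM. Its ratio of 2.66 (2.21 to 3.19) rested on 1 cell, since Cxcl1 was seen in 9 of 111 members labelled KO and 122 of its 152 UMIs lay in a single one. It was 0.701 in the stricter set, 0.931 thinned to 1000 UMIs per cell and 0.106 without the 5 richest cells. Cxcl3, another ligand of the receptor, did not differ by 1.5-fold, with 1609.9 and 1602.6 CPM. Of the 9 measured chemokine ligands, 1 (Cxcl1) was past 1.5-fold higher and 2 lower, and in the stricter set, where 7 had enough UMIs, 0 and 1.

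The promoters of Nfkbia and Cxcl2 are printed because these were abundant genes of the NF-kB and chemokine groups that stood on opposite sides of 1. The motif searched was the kappa-B consensus of NF-kB, a run of G followed by a purine, any bases, pyrimidines and C, on either strand, and it occurred in 2382 of 32851 windows (7.25%). It was found for 8 of 13 matched NF-kB genes (Nfkb2, Nfkbia, Nfkbid, Nfkbie, Rel, Tnfaip2, Tnfaip3 and Tnip1) and 5 of 7 matched chemokine ligands (Ccl9, Cxcl1, Cxcl10, Cxcl2 and Cxcl3). Windows are from RefSeq on GRCm38, Nfkbia at chr12:55492648-55492897 on the minus strand and Cxcl2 at chr5:90903649-90903868 on the plus strand, the latter ending 30 bases before the start. Capitals mark the matches, 29 bases before the start of Nfkbia, and 2 overlapping ones at 97 and 96 bases before that of Cxcl2. The higher and the lower gene both held the motif.
Nfkbia: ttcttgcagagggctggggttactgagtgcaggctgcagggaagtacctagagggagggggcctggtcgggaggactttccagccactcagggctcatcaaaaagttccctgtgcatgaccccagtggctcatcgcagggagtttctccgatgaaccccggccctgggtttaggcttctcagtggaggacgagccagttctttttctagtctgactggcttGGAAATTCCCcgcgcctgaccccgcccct
Cxcl2: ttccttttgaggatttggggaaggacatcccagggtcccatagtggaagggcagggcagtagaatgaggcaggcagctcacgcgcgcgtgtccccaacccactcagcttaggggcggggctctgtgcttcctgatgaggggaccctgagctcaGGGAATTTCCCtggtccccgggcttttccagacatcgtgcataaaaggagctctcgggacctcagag

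Of 19 receptors and adhesion genes, 3 passed 1.5-fold higher and 5 passed it lower in cells labelled KO, shares near the 15.3% and 23.2% of all genes. Pecam1, a marker of blood vessel cells and 1 of the 3, was seen in 8 of 111 members labelled KO, with 15 UMIs in 1 cell. Cxcr4, the receptor that retains neutrophils in marrow and marks aged cells, was at 250.3 against 464 CPM (ratio 0.539, 0.437 to 0.659). Ccrl2, a chemerin-binding receptor, had a ratio of 0.464 (0.410 to 0.524), Fpr2, a formyl peptide receptor, 0.496 (0.386 to 0.629) and Ptafr, the receptor for platelet-activating factor, 0.572 (0.498 to 0.654). With each cell weighted equally Cxcr4 was at 0.698 and Ptafr at 0.693, inside 1.5-fold. The related Fpr1 was at 361 and 293 CPM, and Itgam, the CD11b integrin chain, at 326 and 365.

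Of 15 measured genes linked to tumour neutrophils, 3 were past 1.5-fold higher and 5 lower. Ptgs2, the inducible cyclooxygenase, was at 584 against 2005 CPM, a ratio of 0.291 (0.255 to 0.332), and the median cell had 3.31 against 15.2 UMIs per 10000. Dgat1, which makes triglycerides, was at 172 against 671 CPM (ratio 0.256, 0.199 to 0.325), and Vegfa, the angiogenic growth factor, at 51.5 against 204 (ratio 0.252, 0.155 to 0.389) from 21 UMIs labelled KO. Thbs1, the matrix protein thrombospondin 1, had a ratio of 0.324 over all cells, but 0.163 without the richest 5%, since 58.8% of its UMIs labelled KO lay in 5 cells.

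Lgals3, the lectin galectin-3, was higher, at 800.1 against 421 CPM (ratio 1.90, 1.68 to 2.14). Spp1, osteopontin, was at 265 against 143 CPM, a ratio of 1.85 that depended on which cells were left out. It was 0.967 without the 5 richest cells of each library, 2.91 without the richest 5% and 2.59 in the stricter set. Sqstm1, the autophagy receptor of the series title, had 27 and 573 UMIs, 66.3 against 156 CPM, a ratio of 0.425 (0.278 to 0.625), while 1 of 16 measured genes of its autophagy and NRF2 group was past 1.5-fold higher and 5 lower. Pim1, a kinase induced by growth factor signalling in neutrophils, was at 2182 against 4325 CPM (ratio 0.504, 0.471 to 0.540), and Mcl1, the main survival factor of these cells, at 2913 and 3070.4 CPM.

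Of 18 measured interferon-stimulated genes, 2 passed 1.5-fold higher and 8 passed it lower, around a median log2 ratio of -0.51. Ifitm1, an antiviral membrane protein, was at 3070.2 against 5657 CPM (ratio 0.543, 0.512 to 0.575) and Irf1, an interferon-induced factor, at 118 against 294 (ratio 0.401, 0.294 to 0.535). Ifit1, an antiviral RNA-binding protein, had 1 UMI labelled KO and 197 labelled WT, a ratio of 0.0458 (0.00115 to 0.258). Slfn1, a Schlafen gene, was higher at 464 against 265 CPM, and Ifitm6, a neutrophil member of the Ifitm family, at 1219.7 against 806, though its ratio of 1.51 was 1.21 without the richest 5% of cells.

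**Figure D2:**
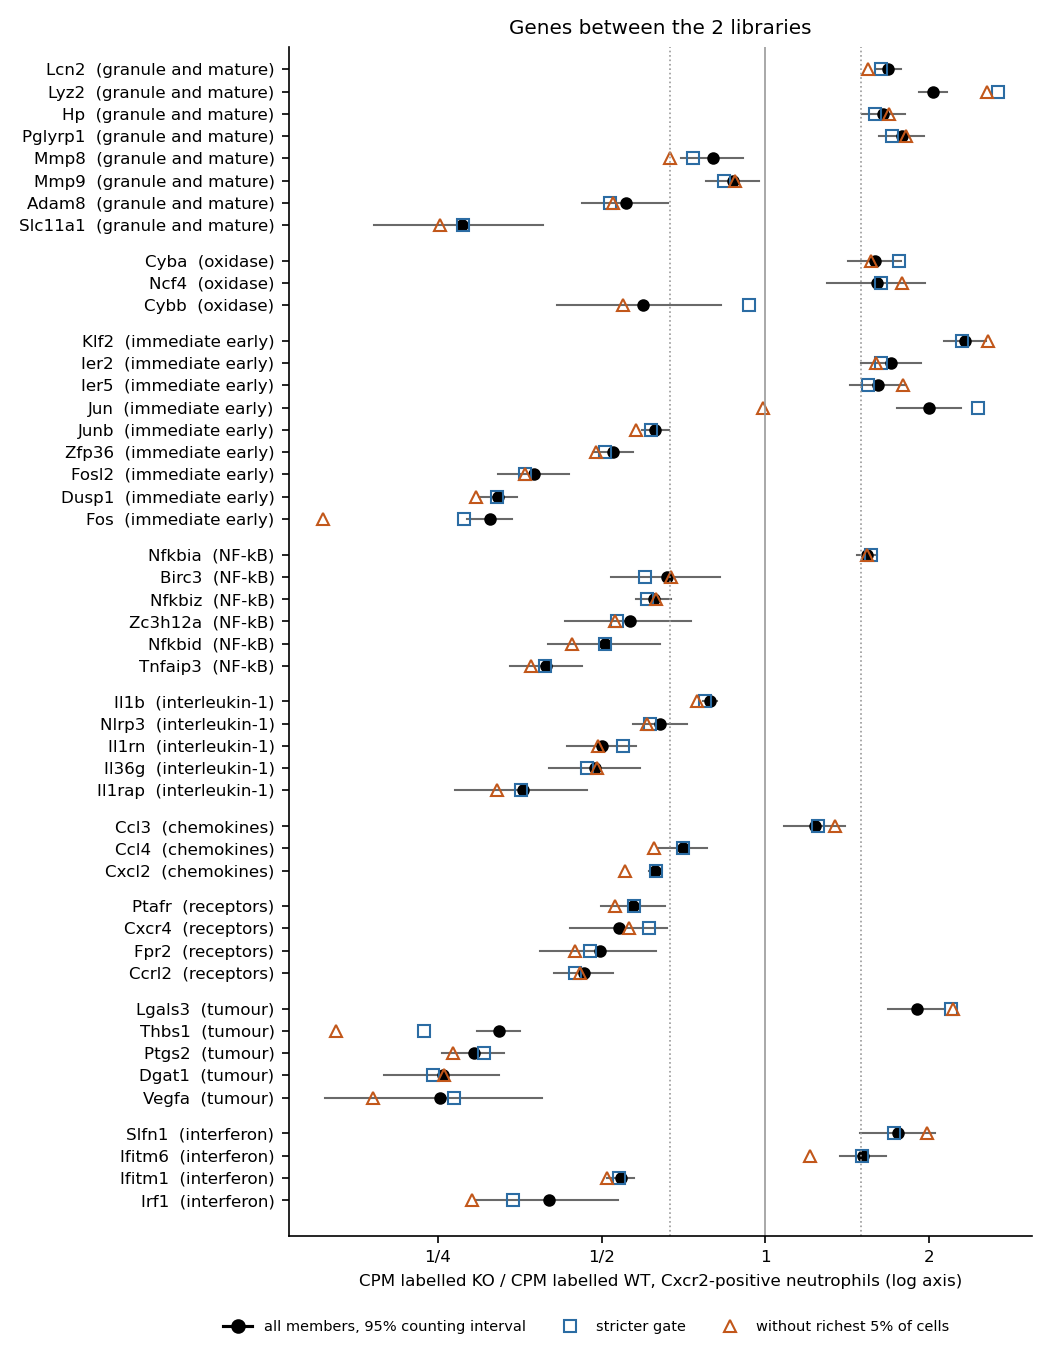
Ratio of CPM in the library labelled KO to CPM in the library labelled WT over Cxcr2-positive neutrophils, on a log axis, for genes grouped by role, with dots and bars for all members and their 95% counting interval, squares for the stricter set and triangles without the richest 5% of cells per gene; dotted lines stand at 1.5-fold. Dusp1, Tnfaip3 and Ptgs2 lie below 0.5 with all 3 markers, Nfkbia lies at the 1.5-fold line, and Jun, Fos and Thbs1 lie lower when the richest cells are left out.

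RNA of other cell types in the members differed between the libraries. The 15 genes ranked highest in the library labelled KO held 14 of blood vessel and connective tissue cells, such as Igfbp7 with 207 against 2 UMIs, Plvap with 78 against 0 and Dcn with 72 against 0. Against a floor of 3 UMIs over all members labelled WT, Plvap was 234-fold higher, with a lower interval bound of 186. Just 3 of the 111 cells carried 470 of the 482 UMIs of 5 such genes (Igfbp7, Plvap, Cdh5, Dcn and Sparc). The 8 stromal markers summed to 589 CPM labelled KO, with Col1a2 at 0, and 12.0 CPM labelled WT.

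In the other direction, class II genes led the ranked list, and H2-Ab1, an antigen-presenting chain, was at 19.6 against 254 CPM, Cd74, its chaperone, at 68.7 against 542, and the mast cell protease Mcpt2 at 85.9 against 500.3. The 10 dendritic markers summed to 160 CPM labelled KO, with Flt3, Xcr1, Clec9a and Cd209a at 0, and 1437 CPM labelled WT. The 10 mast and basophil markers summed to 258 CPM, with Mcpt4, Mcpt8 and Gata2 at 0, and 1110.5 CPM with Mcpt8 at 0. In the stricter set the ratio of Cd74 was 0.416 in place of 0.127, and that of Mcpt2 0.381 in place of 0.172, but both are among the markers that the stricter set limits, so the filter itself acts on these values. Blood vessel RNA was not fully removed by the stricter set. Plvap still had 40 UMIs labelled KO against 0 labelled WT, Igfbp7 58 against 2 and Kdr 23 against 1. The part of other cells' RNA in the ratios of other genes was not tested beyond the stricter set.

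Dusp1, Zfp36, Tnfaip3 and Pim1 were also lower in the library labelled KO in T-marked and macrophage-marked cells. All of these comparisons share the same 2 libraries, so the values stand side by side and are not independent. Dusp1 had a ratio of 0.323 in Cxcr2-positive neutrophils, 0.315 in gated neutrophils without a Cxcr2 UMI, 0.365 in Cd3e-gated cells and 0.395 in C1qa-gated cells. Zfp36 had ratios of 0.525, 0.414, 0.402 and 0.552 in the same order, Tnfaip3 0.396, 0.292, 0.481 and 0.486, and Pim1 0.504, 0.556, 0.452 and 0.526. In epithelial-gated cells the ratios were 0.705, 0.688, 0.508 and 0.636 for Dusp1, Zfp36, Tnfaip3 and Pim1, so that Dusp1 and Zfp36 lay inside 1.5-fold there.

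Other ratios lay further from 1 in neutrophils than in T-marked or macrophage-marked cells. Nfkbia had ratios of 1.54 and 1.60 in neutrophils with and without Cxcr2, but 0.996 in Cd3e-gated and 1.14 in C1qa-gated cells. Klf2 had 2.33 and 2.97 in neutrophils, 1.03 in Cd3e-gated and 1.51 in C1qa-gated cells. Pglyrp1 had 1.78 and 1.56 in neutrophils, against 0.743 and 0.880, and Lgals3 1.90 and 1.70 against 1.34 and 0.998. Cyba had 1.59 and 1.98 against 1.38 and 1.03. In epithelial-gated cells Nfkbia and Klf2 were also higher in the library labelled KO, with ratios of 1.49 and 2.41, while Pglyrp1, Lgals3 and Cyba had 0.672, 1.17 and 1.18. The difference between cell types was not tested, since each rests on 1 library per genotype.

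**Figure D3:**
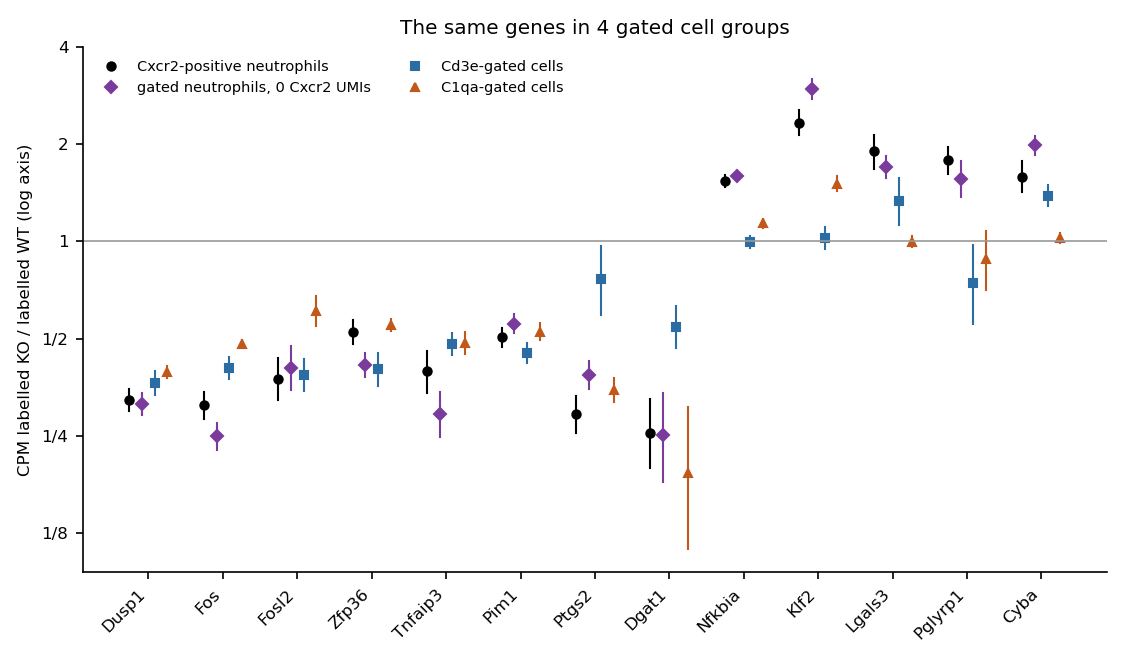
Ratio of CPM labelled KO to CPM labelled WT on a log axis for 13 genes in 4 groups of gated cells. Bars are 95% intervals for counting error in Cxcr2-positive neutrophils. In the other groups the bars hold the error of the KO-labelled count alone, and so are too narrow. Dusp1, Zfp36, Tnfaip3 and Pim1 lie between 0.29 and 0.56 in all 4 groups, whereas Nfkbia and Klf2 lie above 1.5 in both neutrophil groups and at 0.996 and 1.03 in Cd3e-gated cells.

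Within each library, Cxcr2-positive neutrophils carried more of 5 of 7 gelatinase granule messages than gated neutrophils without a Cxcr2 UMI, and far less RNA of other myeloid cells. Cxcr2 detection defined both groups, so these ratios describe the split and have no test. In the library labelled KO 654 of 3784 genes (17.3%) were at least 1.5-fold higher in Cxcr2-positive cells and 1689 (44.6%) lower. In the library labelled WT 971 of 9648 (10.1%) were higher and 5632 (58.4%) lower. The median log2 ratios of -0.42 and -0.80 show that most genes lay below 1. Genes of the specific granule list went both ways, with 4 higher and 3 (Chil3, Lyz2 and Cd63) lower in each library, of 9 measured labelled KO and 8 labelled WT. Lyz2 and Cd63 are not confined to that granule, and Lyz2 stood at 11842 and 16836 CPM in C1qa-gated cells labelled KO and WT. Arg1 of the gelatinase list was lower in both libraries.

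Wfdc21 was at 2965 against 910.2 CPM with and without Cxcr2 in the library labelled KO, a ratio of 3.26 (2.94 to 3.61), and at 3110.2 against 958 in the library labelled WT, a ratio of 3.25 (3.13 to 3.37). Ly6g had ratios of 3.74 and 3.22, Mmp8 3.10 and 3.46, and Mmp9 2.94 and 2.90. On the low side, Cd74 had ratios of 0.0510 and 0.177, and Plac8, a gene high in monocytes, 0.0745 and 0.231. Hmox1, haem oxygenase, stood at 0.289 and 0.182.

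The cells without Cxcr2 held much more RNA of other cell types. The 8 monocyte markers summed to 665 CPM in Cxcr2-positive and 4909 in Cxcr2-negative gated neutrophils labelled KO, and to 1141 and 4545 labelled WT. The 10 mast and basophil markers summed to 258 and 4544, and 1110.5 and 4012 CPM, and the dendritic markers to 160 and 3617, and 1437 and 7944. Of the cells without Cxcr2, 38.1% labelled KO and 38.7% labelled WT had at least 50 UMIs per 10000 of such markers, against 3.60% and 6.81% of the Cxcr2-positive cells.

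In the stricter set most of the contrast went. It kept 63 and 545 cells without Cxcr2, and 156 of 1600 genes (9.75%) were then higher in Cxcr2-positive cells labelled KO and 156 (9.75%) lower, with 280 (6.05%) and 224 (4.84%) of 4628 labelled WT. Mmp8 had a ratio of 1.13 (0.893 to 1.44) labelled KO and 1.28 (1.18 to 1.40) labelled WT, Wfdc21 1.29 (1.16 to 1.45) and 1.13 (1.09 to 1.18), and Ly6g 1.24 (0.927 to 1.68) and 1.12 (0.997 to 1.25). Gelatinase granule genes, 5 of 7 higher in both libraries under the rule as given, were higher in 0 of 6 and 1 of 7. Interferon-stimulated genes, 8 of 16 and 15 of 24 higher as given, were higher in 0 of 12 and 1 of 21.

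In the stricter set, 396 of 1468 genes measured in both libraries lay below 1 in both and 420 above, and some of those below are given here. Hmox1 had ratios of 0.349 (0.183 to 0.651) labelled KO and 0.584 (0.482 to 0.710) labelled WT, and Arid5b, a chromatin-binding factor, 0.397 (0.209 to 0.744) and 0.611 (0.457 to 0.822). Ftl1, the ferritin light chain, was at 2501 against 3896 CPM labelled KO and 2593 against 3255 labelled WT. Gadd45b, a stress-response gene, had ratios of 0.559 and 0.828, against 0.936 and 0.891 as given, Cxcr4 0.652 (0.476 to 0.896) and 0.841 (0.759 to 0.933), and Ccl3, a macrophage-attracting chemokine, 0.823 (0.673 to 1.01) and 0.546 (0.506 to 0.590). Slpi, a secreted protease inhibitor, stood at 0.641 and 0.898, against 1.13 and 0.894 as given.

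**Figure D4:**
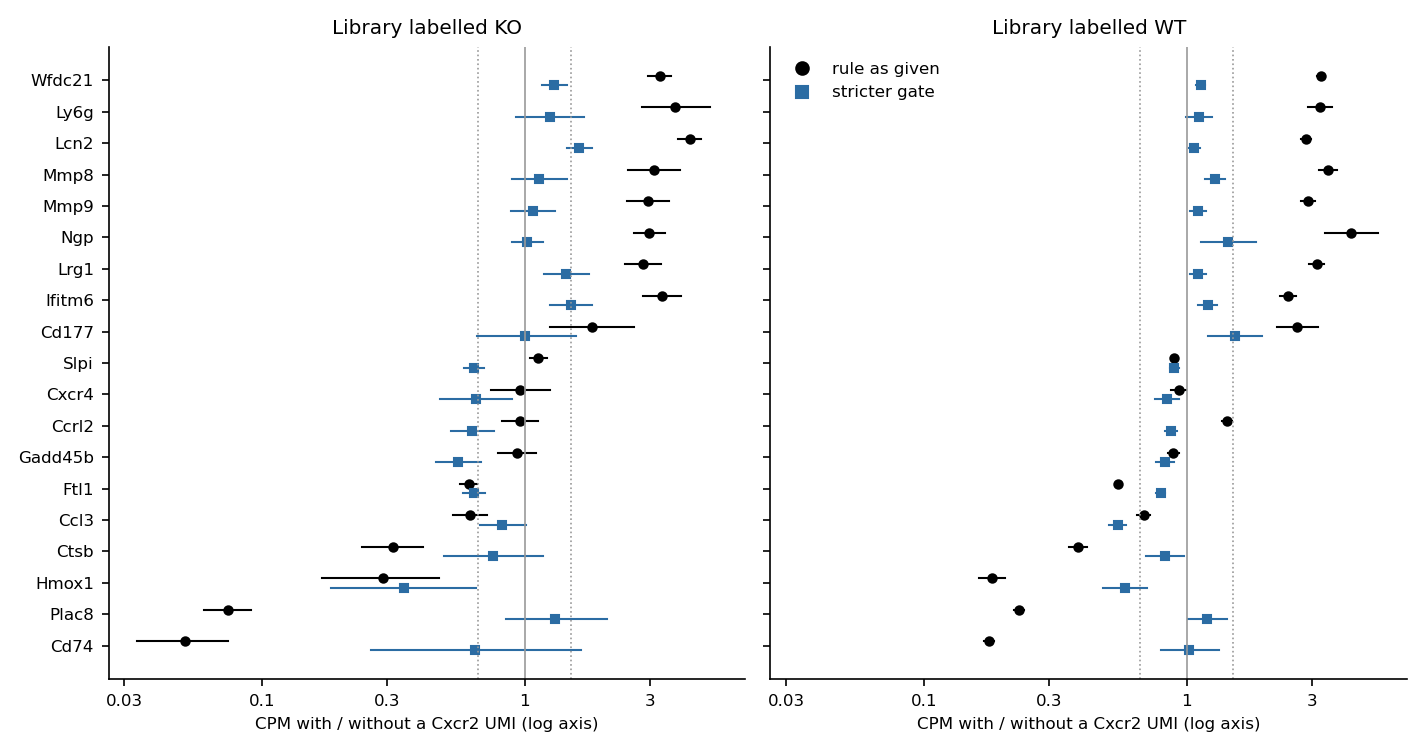
Ratio of CPM in gated neutrophils with a Cxcr2 UMI to CPM in those without, on a log axis, in each library, with black dots for the rule as given, blue squares for the stricter set, bars for 95% counting intervals and dotted lines at 1.5-fold. Granule genes such as Mmp9 lie near 2.9 as given and near 1.1 in the stricter set, and Hmox1 lies below 1 under both in both libraries.

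Levels were also set beside the number of Cxcr2 UMIs in a cell. They were taken at 1000 UMIs per cell in the stricter set, over 63, 50, 30 and 25 cells labelled KO and 521, 582, 391 and 371 labelled WT with 0, 1, 2, and 3 or more Cxcr2 UMIs. Cells were grouped by their full Cxcr2 count, so depth is not removed from the grouping. Before the stricter set, median depths with 0, 1, 2 and 3 Cxcr2 UMIs were 3453, 2966, 3133.5 and 4215 UMIs labelled KO. Labelled WT they were 2157, 1971, 2011.5 and 2132. Retnlg, a gene of the rule, was at 110, 123, 144 and 202 UMIs per 10000 in the library labelled KO, and at 127, 141, 133 and 146 in the library labelled WT. Mmp8 went 6.30, 7.87, 8.37 and 9.11 over the same steps labelled WT, and 4.10, 4.29, 3.55 and 7.35 labelled KO. Mmp8 was thus highest in the cells with most Cxcr2 in both libraries, but the steps between were even only in the larger one.

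Cxcr4, whose receptor opposes CXCR2 in marrow retention, was at 4.35, 4.38, 2.83 and 2.40 labelled KO and 5.56, 4.55, 4.47 and 4.37 labelled WT. Hmox1 was at 1.69 in cells without Cxcr2 labelled WT and between 0.805 and 1.05 in those with it, and at 1.76 and between 0.167 and 0.988 labelled KO. Ccl3 was at 10.9, 5.91, 4.66 and 5.16 labelled WT, and at 11.8, 5.08, 9.44 and 9.31 labelled KO, so it was highest without Cxcr2 in both libraries but had no even course labelled KO. Each series of steps comes from the cells of 1 library and is not replicated.

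Ccl3 was detected in a part of the Cxcr2-positive neutrophils. A Ccl3 UMI was present in 42 of 111 labelled KO (37.8%, 28.8 to 47.5) and 430 of 1483 labelled WT (29.0%, 26.7 to 31.4). At 1000 UMIs per cell the expected shares were 23.6% and 20.2%, so part of that gap went with depth. The other gated cells given next held fewer than 4 of the 9 neutrophil genes by their gate, which also limits neutrophil RNA in them. In Cd3e-gated cells, with median depths of 3527 and 2501 UMIs against 3234 and 2049 in the members, a Ccl3 UMI was present in 3.24% and 5.17%, or 2.02% and 2.38% at 1000 UMIs. In epithelial-gated cells, with median depths of 17401 and 3904 UMIs, the shares were 3.63% and 5.64%, or 0.744% and 1.47% at 1000 UMIs. C1qa-gated cells, with median depths of 7724 and 5831 UMIs, lay above the members. Their shares were 56.5% and 55.4%, or 36.2% and 31.8% at 1000 UMIs, and their Ccl3 stood at 1000 and 674 CPM. Over all members Ccl3 was at 660 CPM labelled KO and 535 labelled WT, a ratio of 1.23 (1.08 to 1.40). It was 0.752 without the 5 richest cells of each library and 1.34 without the richest 5%.

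Several other chemokine and interleukin-1 messages were higher in members with Ccl3 in both libraries. These genes were picked after their values were seen and have no test. Members were split by their full Ccl3 count, so depth is not removed from the split. In the stricter set and at 1000 UMIs per cell, Ccl4, the neighbouring chemokine, was at 24.1 UMIs per 10000 in 40 members with Ccl3 labelled KO and 4.36 in 65 without, and at 29.7 in 381 and 9.20 in 963 labelled WT. Cxcl3 was at 40.1 and 8.34 labelled KO and 20.7 and 14.7 labelled WT. Cxcl2 was at 289.5 against 149 and 382 against 287, and Il1a, another interleukin-1, at 6.69 against 2.95 and 4.90 against 3.26. Tnf went 2 ways, at 2.79 against 3.32 labelled KO and 1.92 against 1.03 labelled WT.

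Some genes outside these families were higher with Ccl3 as well. Spp1 was at 6.30 UMIs per 10000 with Ccl3 and 1.03 without labelled KO, and at 1.98 and 0.736 labelled WT. Ctsb, a lysosomal protease, was at 3.38 and 0.982, and 2.31 and 1.15. Bcl2a1b, a survival gene with near-identical copies among which reads can be split, was at 11.5 and 3.96, and 6.25 and 3.99. Thbs1 was at 11.7 and 5.48, and 45.4 and 33.1, and Ftl1 at 30.9 and 23.0, and 34.4 and 21.7. Lgals3, which is linked to tumour neutrophils like Spp1 and Thbs1, was at 8.25 and 7.82 labelled KO and at 3.43 and 3.91 labelled WT.

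Il1b and Cxcr2 were similar in members with and without Ccl3. Il1b was at 127 and 118 labelled KO and at 147 and 147 labelled WT, and Cxcr2 at 6.10 and 5.95, and 9.47 and 9.78. Some granule genes were lower with Ccl3 in both libraries and others were not. Hp was at 9.99 against 16.5 labelled KO and 7.87 against 9.92 labelled WT, Pglyrp1 at 10.4 against 14.6 and 7.10 against 8.28, and Mmp9 at 7.16 against 10.0 and 10.5 against 11.7. Mmp8 did not share 1 direction, at 5.50 against 4.38 labelled KO and 6.68 against 9.02 labelled WT, nor did Lcn2, at 33.0 against 31.3 and 21.8 against 24.3, or Wfdc21, at 28.6 against 25.3 and 32.0 against 36.2.

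**Figure D5:**
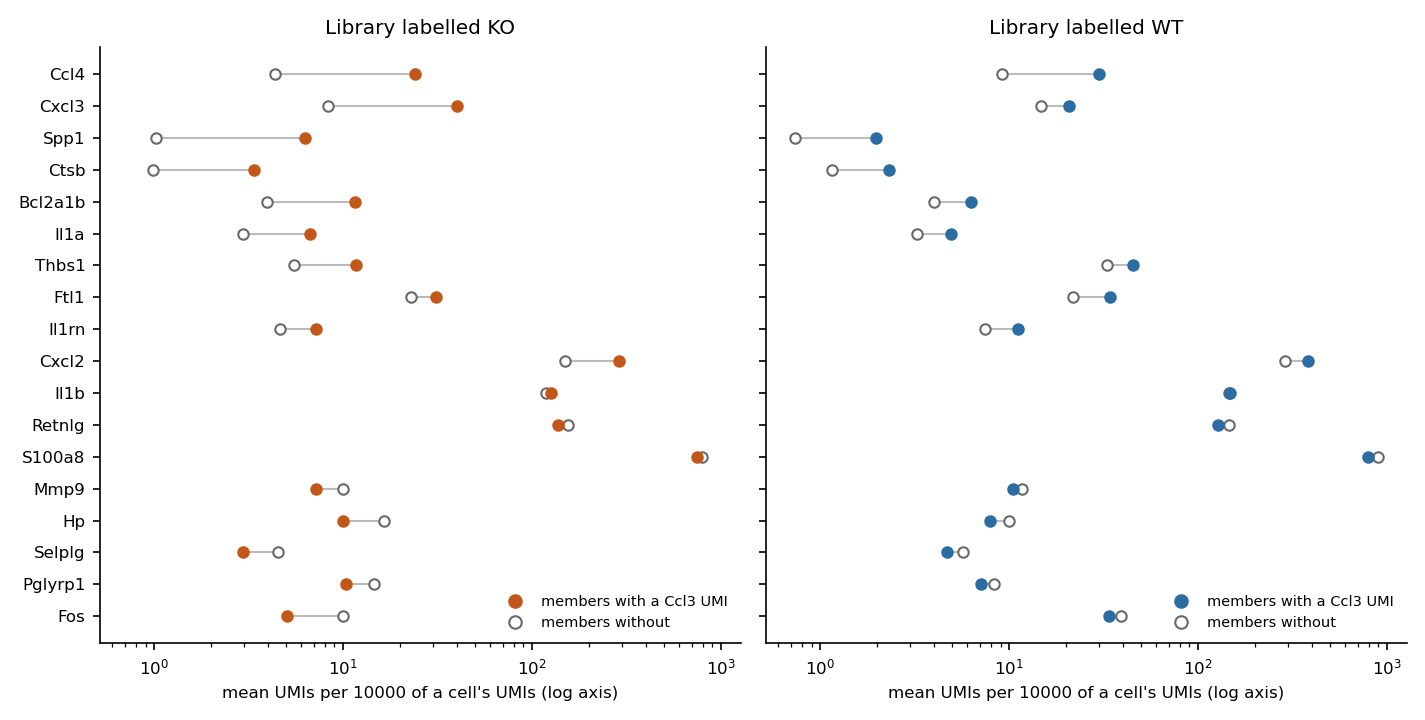
Mean UMIs per 10000 of a cell's UMIs, on a log axis, in Cxcr2-positive neutrophils of the stricter set with a Ccl3 UMI (filled) and without (open), for 18 genes in each library. Cells were split by their full Ccl3 count, so depth is not removed from the split. Ccl4, Spp1 and Ctsb lie further right with Ccl3 in both libraries, the points of Il1b nearly coincide, and Hp, Selplg and Pglyrp1 lie further left.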

How the data were processed

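The deposited matrices of 2 libraries hold UMI counts per gene and barcode for 55357 genes, made by the authors with Cell Ranger 7.2.0, per the file headers, on GRCm39, per the submitters' processing notes. The labels' protocol describes RNA extraction from bulk tissue, so the capture chemistry is not given in the sources used here. Barcodes were selected by the rule stated in the opening, and counts were summed per library and cell group and scaled to CPM. Cd3e-gated, C1qa-gated and epithelial-gated cells were taken from passing barcodes with fewer than 4 of the 9 neutrophil genes. Ratios were given exact conditional binomial 95% intervals, with exact Clopper-Pearson intervals for shares. Ratios between libraries in gated cells other than the members are printed without an interval. A gene was measured when the mean CPM times the smaller total gave at least 10 UMIs, and called past 1.5-fold. A group at 0 was set to a floor of 3 UMIs. Levels at equal depth are the expected values after drawing 1000 UMIs per cell without replacement, leaving out shallower cells. Members and the 35 gene lists (449 of 454 genes found) were chosen with earlier results of these data known. Named genes are list members, plus the 15 ranked highest and lowest by the interval bound nearest to 1 in each comparison, and a few named for their values. The genes of the Cxcr2-positive to Cxcr2-negative and the Ccl3 comparisons and the cells with Camp and Ltf were singled out after their values were seen. No doublet score was used in the rule, and the automatic threshold of Scrublet marked 2 and 0 barcodes (0.0456% and 0%), too few for a working call. As an alternative the highest scores, 154 and 633 barcodes with 2 and 80 members among them, were left out. Other alternatives changed the marker minimum, mitochondrial limit, Cxcr2 minimum, depth, weighting, scaling and count filter. The ratio code was tested on simulated data. Python 3.11.15, numpy 2.4.6, scipy 1.17.1, pandas 2.3.3, scanpy 1.11.5 and matplotlib 3.10.9 were used, and promoter windows came from a RefSeq table on GRCm38.p6, with no coordinates taken from the count files.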

Additional observations from a re-analysis of the deposited data

Results flagged for a closer look

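The stress chaperone Hspa1a differed in direction between the libraries when Cxcr2-positive were set against Cxcr2-negative gated neutrophils, with a ratio of 4.28 labelled KO and 0.271 labelled WT. Only 3 of the 111 Cxcr2-positive cells labelled KO (2.70%) held its 148 UMIs, and Hspa1a and Hspa1b are near-identical copies among which reads can be split. Serpinb1a, an inhibitor of neutrophil proteases, had a ratio of 2.37 labelled KO and 0.509 labelled WT, and 91.3% of its UMIs in Cxcr2-positive cells labelled KO lay in 5 cells. The difference between the libraries was not tested for either gene.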

How the results depend on the processing

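No paired analysis was possible because each genotype has 1 library and no test was made. The stricter gate (at least 7 of 9 markers and under 50 UMIs per 10000 of other cells' markers) and the removal of the richest 5% of cells per gene were chosen after seeing the data. Thinning to 1000 UMIs gave shares of passing barcodes of 1.26% and 11.3% labelled KO and WT, 8.97-fold apart, and shares of gated neutrophils of 23.4% and 38.4%, 1.64-fold apart. Requiring 5 markers gave 57.5% and 65.0% of gated neutrophils, and the stricter gate 62.7% and 71.3%, with 15.2% of passing barcodes labelled WT. Between libraries, the 480 higher and 726 lower genes became 164 and 294 thinned, 86 and 229 with at least 50 expected UMIs and 10171 and 2231 with no filter; without the 5 richest cells they were 80 and 1184, and without the richest 5% 410 were lower. Leaving out 5 cells removes a larger share of 111 than of 1483 cells. For Cxcr2-positive over negative labelled KO, the 654 higher and 1689 lower genes became 422 and 919 with 5 markers, 163 and 371 thinned, 188 and 397 with at least 50 UMIs and 156 and 156 in the stricter gate, while 951 were lower without the richest 5% and 1018 with at least 2 Cxcr2 UMIs. Labelled WT, the 971 higher and 5632 lower became 478 and 2417 thinned, 627 and 2746 without the richest 5% and 280 and 224 in the stricter gate, with 567 higher at 5 markers, 632 higher with cells weighted equally and 2696 lower with at least 50 UMIs. Directions turned for Jun between libraries, at 0.537 without the 5 richest cells and 0.989 without the richest 5%, for Spp1, at 0.967 without the 5 richest, and for Cxcl1, at 0.931 thinned, 0.106 without the 5 richest and 0.701 in the stricter gate. In the stricter gate they turned for Cxcr2-positive over negative in Plac8, at 1.31 labelled KO and 1.20 labelled WT, and labelled WT in Cd74 at 1.02, H2-Ab1 at 1.12, Hspa1a at 3.19 and Serpinb1a at 1.18. The gate limits Plac8, Cd74 and H2-Ab1 by its own markers, so their turn follows from its construction. Apart from the thinned, filtered and smaller sets, where fewer UMIs or cells remain, the cause was not tested. Depth limits genes such as Ifit1, H2-Ab1, Vegfa, Padi4 and Sqstm1, with 1, 8, 21, 27 and 27 UMIs labelled KO.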

Other observations

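Other groups of the Cxcr2-positive neutrophils were compared between the libraries in the same way, against 15.3% of all genes that passed 1.5-fold higher labelled KO and 23.2% that passed it lower. Of 14 measured transcription factors of neutrophils, 0 were higher and 7 lower. Id2, an inhibitor of helix-loop-helix factors, was at 41.7 against 188 CPM (ratio 0.222, 0.129 to 0.358), Per1, a clock gene, at 66.3 against 171 (ratio 0.386), and Ets2, a factor downstream of growth factor signalling, at 672 against 1295 (ratio 0.519, 0.458 to 0.587). Cebpb and Spi1, factors that set the myeloid programme, stayed inside 1.5-fold, with ratios of 0.835 and 1.19. Of 21 measured genes of pattern recognition and phagocytosis 0 were higher and 6 lower, with Pirb, an inhibitory receptor, at 194 against 354 CPM (ratio 0.548, 0.431 to 0.689) and Cd14, the endotoxin co-receptor, at 4157 and 3601 CPM.

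Of 22 measured hypoxia and glycolysis genes 3 were higher and 1 lower. Slc2a3, a glucose transporter, was the lower one, at 211 against 432 CPM (ratio 0.489, 0.389 to 0.607), while Hif1a and Ldha had ratios of 0.892 and 0.948. Of 12 heat shock genes 6 were higher and 0 lower, among them Hsp90ab1, a chaperone, at 508 against 310.0 CPM (ratio 1.64, 1.41 to 1.90). Hspa1a was another of the 6, but its 148 UMIs labelled KO lay in only 2.70% of the members. Wfdc17, an immunomodulatory secreted protein, was at 2744 against 7928 CPM (ratio 0.346, 0.326 to 0.367), with a range of 0.298 to 0.363 over the alternatives. Csf1, the macrophage growth factor, was at 120.3 against 40.8 CPM, a ratio of 2.95 (2.09 to 4.09) from 49 and 150 UMIs. Of its UMIs labelled KO 51.0% lay in 5 cells. The Csf1 ratio was 1.85 without the 5 richest cells of each library and 16.8 without the richest 5%, so its size is poorly fixed. Tnf was at 258 against 186 CPM, and its ratio of 1.38 was 1.99 in the stricter set.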
